A study of Mus musculus with 9 samples.

Results

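Mmp14, the gene of membrane-type 1 matrix metalloproteinase, was described in mouse spinal cord together with 9 related genes. They are 4 further membrane-type metalloproteinases, Mmp15, Mmp16, Mmp17 and Mmp24, the secreted gelatinase Mmp2, and the tissue inhibitors of metalloproteinases Timp1, Timp2, Timp3 and Timp4. These 10 genes stand among 40879 gene symbols of the deposited table, and all 10 have a row there. Mmp14 was chosen by its lower read count in SNI+LDN193189 against SNI, where it was the 1 gene called, and the other 9 were taken by symbol as its family and inhibitors with earlier results of these data known. For that reason SNI+LDN193189 against SNI is given below as levels and differences with their intervals. Its calls are stated as part of the choice and are not read as support.

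The tissue was spinal cord of male mice, sequenced as 9 RNA libraries, 3 in each of the groups SNI+LDN193189, SNI and sham. SNI in pain research is spared nerve injury, in which branches of the sciatic nerve are cut and another is left whole. LDN193189 is a small-molecule inhibitor of the kinases of bone morphogenetic protein (BMP) type I receptors, ACVR1 among them, and mice of that group carried SNI as well. The title of the study places ACVR1 in neuropathic pain. Strain, age, cord level and side, time after surgery, dose, route and any vehicle given to the SNI and sham mice were not in the labels. The labels number the replicates without tying them to separate animals, so p-values measure the spread between these samples, which may be technical. The columns of the tables carry the letters L, N and S, read here by name as SNI+LDN193189, SNI and sham. If S and N were meant the other way, the directions between SNI and sham would turn.

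Matrix metalloproteinases are zinc-dependent enzymes that cut proteins of the extracellular matrix and of the cell surface. They are made as inactive proforms. Membrane-type members stay on the cell surface, Mmp17 by a lipid anchor and Mmp14, Mmp15, Mmp16 and Mmp24 by a transmembrane segment, and furin-like proteases free them of their propeptide inside the cell. On the surface the Mmp14 protein binds Timp2, the complex holds the proform of Mmp2, and a neighbouring free Mmp14 molecule then cuts and activates it. Timp2 is thus both an inhibitor and, at limited amounts, a helper in that activation, while Timp1 inhibits Mmp14 poorly. In the nervous system these enzymes are known for remodelling around vessels, glial migration and the response to nerve injury.

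The coding sequence shows what the protease members share. The stretch for the catalytic zinc site is printed first, since it carries the active site common to the family. Each line holds 33 coding bases of GENCODE M21 on GRCm38, plus strand, and capitals mark the codons of the 3 histidines that hold the zinc.
Mmp14 zinc site, chr14:54437627-54437659: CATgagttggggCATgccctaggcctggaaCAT
Mmp15 zinc site, chr8:95368585-95368617: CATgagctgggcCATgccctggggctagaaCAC
Mmp16 zinc site, chr4:18051748-18051780: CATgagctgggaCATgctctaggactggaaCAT
Mmp17 zinc site, chr5:129596597-129596629: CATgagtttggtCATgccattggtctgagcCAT
Mmp24 zinc site, chr2:155807427-155807459: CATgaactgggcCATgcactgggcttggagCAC
Mmp2 zinc site, chr8:92839279-92839311: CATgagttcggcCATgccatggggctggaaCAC
All 6 stretches lie in coding exons, exon 5 of 10 in Mmp14. Mmp16 equals Mmp14 at 29 of the 33 bases, Mmp15 and Mmp2 at 27 each, and Mmp17 and Mmp24 at 25 each. The furin-type site is printed next because it tells the membrane-type members from the gelatinase. Capitals mark all 12 bases, the codons for arginine, any residue, lysine and arginine, which lie in exon 3 of each gene.
Mmp14 furin-type site, chr14:54436202-54436213: CGGAGGAAGCGC
Mmp15 furin-type site, chr8:95366364-95366375: CGGCGGAAACGT
Mmp16 furin-type site, chr4:17996258-17996269: CGTCGAAAGCGC
Mmp17 furin-type site, chr5:129595025-129595036: AGAAGGAAGCGG
Mmp24 furin-type site, chr2:155798124-155798135: AGAAATAAGCGA
In Mmp14 and Mmp15 the site stands 131 codons before the zinc site, in Mmp16 and Mmp24 130 codons and in Mmp17 126 codons. No such run of 4 codons precedes the zinc site in Mmp2.

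The genes lie apart in the genome, and some share their place with a neighbour, which bears on what their counts can show. Mmp14 spans chr14:54431612-54445364 on the plus strand of GRCm38 and overlaps no other annotated gene. Mmp2 at chr8:92827291-92853420 and Mmp15 at chr8:95352268-95375080 share a chromosome, both on the plus strand. Mmp16 spans chr4:17852893-18119145 and Mmp17 chr5:129584169-129611099, also on the plus strand. Timp2 spans chr11:118301069-118355740 on the minus strand and holds, in an intron, the gene Cep295nl, which was listed at 0. Mmp24, at chr2:155775342-155818366, overlaps the opposite-strand gene BC029722 over 637 exonic bases. The libraries mark strand per the labels' protocols, but the strand setting used in counting was not given, so reads in those bases cannot be assigned with certainty. Timp1, Timp3 and Timp4 each lie wholly within a synapsin gene on the opposite strand: Timp1 within Syn1, Timp3 within Syn3 and Timp4 within Syn2. Timp3 shares 1733 exonic bases with its host, Timp4 90 and Timp1 0.

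Timp1, Timp3 and Timp4 were listed at 0 counts in all 9 libraries. The host genes had counts throughout, 10619 to 12651 for Syn1, 1573 to 2075 for Syn3 and 9149 to 11278 for Syn2. Of protein-coding genes lying wholly inside another protein-coding gene, 547 of 558 (98.0%) were listed at 0 in every library, against 1988 of 12816 (15.5%) of those with no overlap. The 3 inhibitors are therefore described as listed at 0, and no statement is made about whether the cord makes them. No floor is set on their levels for the same reason. The remaining 7 genes had counts in every library and passed the filter on low counts.

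Per transcript length, Timp2 stood far above the proteases. On the FPKM scale, which the authors derived from the counts by gene length and library total, Timp2 averaged 132 ± 5.33 FPKM over the 9 libraries, with a range of 124 to 141. Mmp15 followed at 12.1 ± 2.03 FPKM and Mmp14 at 7.91 ± 2.47 FPKM. Mmp24 averaged 5.07 ± 0.449 FPKM, Mmp16 4.33 ± 0.511 FPKM, Mmp17 4.29 ± 0.408 FPKM and Mmp2 2.12 ± 0.489 FPKM (SD, n = 9). Timp2 at the top and Mmp2 at the bottom were separated from their neighbours in this order without overlap. The order rests on the gene lengths behind the deposited FPKM. Counts and FPKM imply 3655 bp for Mmp16 and 3791 bp for Mmp14, while their GENCODE exons cover 8667 and 5960 bp. For the other genes with counts the implied length was also the shorter, by less. The order on other lengths was not tested. The ranges of Mmp15 and Mmp14, Mmp14 and Mmp24, Mmp24 and Mmp16, and Mmp16 and Mmp17 overlapped. Within a library the order was steadier at the top: Mmp15 exceeded Mmp14 in 9 of 9 libraries, and Mmp14 exceeded Mmp24 in 8 of 9. The exception was SNI+LDN193189 replicate 3, with 4.86 FPKM of Mmp14 and 5.34 FPKM of Mmp24. Mmp24 exceeded Mmp16 in 7 of 9 libraries and Mmp16 exceeded Mmp17 in 5 of 9, so Mmp16 and Mmp17 did not differ beyond their spread.

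**Figure D1:**
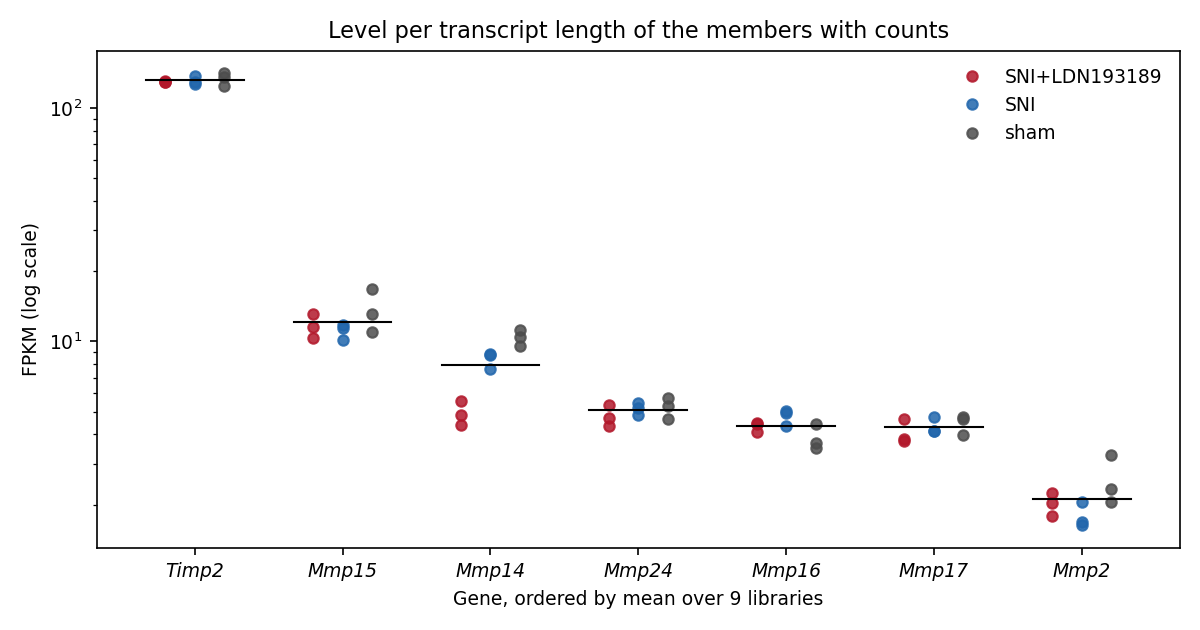
Deposited FPKM (log axis) of the 7 genes with counts, ordered from left to right by their mean over 9 libraries (black line). Points are libraries, coloured by group; Timp2 lies between 124 and 141 FPKM, above every protease, and Mmp14 is the gene whose 3 groups lie apart.

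Mmp14 was lowest in the cord of mice given LDN193189. Its level was 21.0, 16.8 and 18.5 CPM, the count relative to the TMM-scaled library total, in SNI+LDN193189 replicates 1, 2 and 3, from 732, 562 and 646 counts. The SNI replicates had 33.8, 33.6 and 28.6 CPM, from 1112, 1247 and 1032 counts. Sham replicates stood at 35.9, 43.0 and 38.7 CPM, from 1338, 1466 and 1440 counts. Every SNI+LDN193189 library lay below every SNI library, and every SNI library lay below every sham library.

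The means of Mmp14 were 18.8 ± 2.13 CPM in SNI+LDN193189, 32.0 ± 2.95 CPM in SNI and 39.2 ± 3.58 CPM in sham (SD, n = 3 each). Per length this was 4.93 ± 0.591, 8.42 ± 0.681 and 10.4 ± 0.788 FPKM in the same groups. The difference that chose Mmp14, SNI+LDN193189 against SNI, was a log2 fold change of -0.77 (SE 0.0988, 95% interval -0.98 to -0.56), which is 0.588 of the SNI level. Because the gene was chosen on this difference, its size may be overstated, and the interval does not allow for the choice. Of all genes tested, 0.00548% were called in that comparison, which is Mmp14 alone, and 11.3% had groups that did not overlap; neither is read as support, since the comparison chose the gene. The call of Mmp14 was kept under 9 of 17 alternatives and lost under 8. It was lost with limma-voom, with limma on log2 FPKM at both pseudocounts and with a replicate block. It was also lost on leaving out SNI+LDN193189 replicate 2, SNI+LDN193189 replicate 3, SNI replicate 1 or SNI replicate 2. The log2 fold change lay between -0.86 and -0.67 over the 17 alternatives. Over all genes 1 was called with edgeR, 5 with DESeq2 and 0 with limma-voom.

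**Figure D2:**
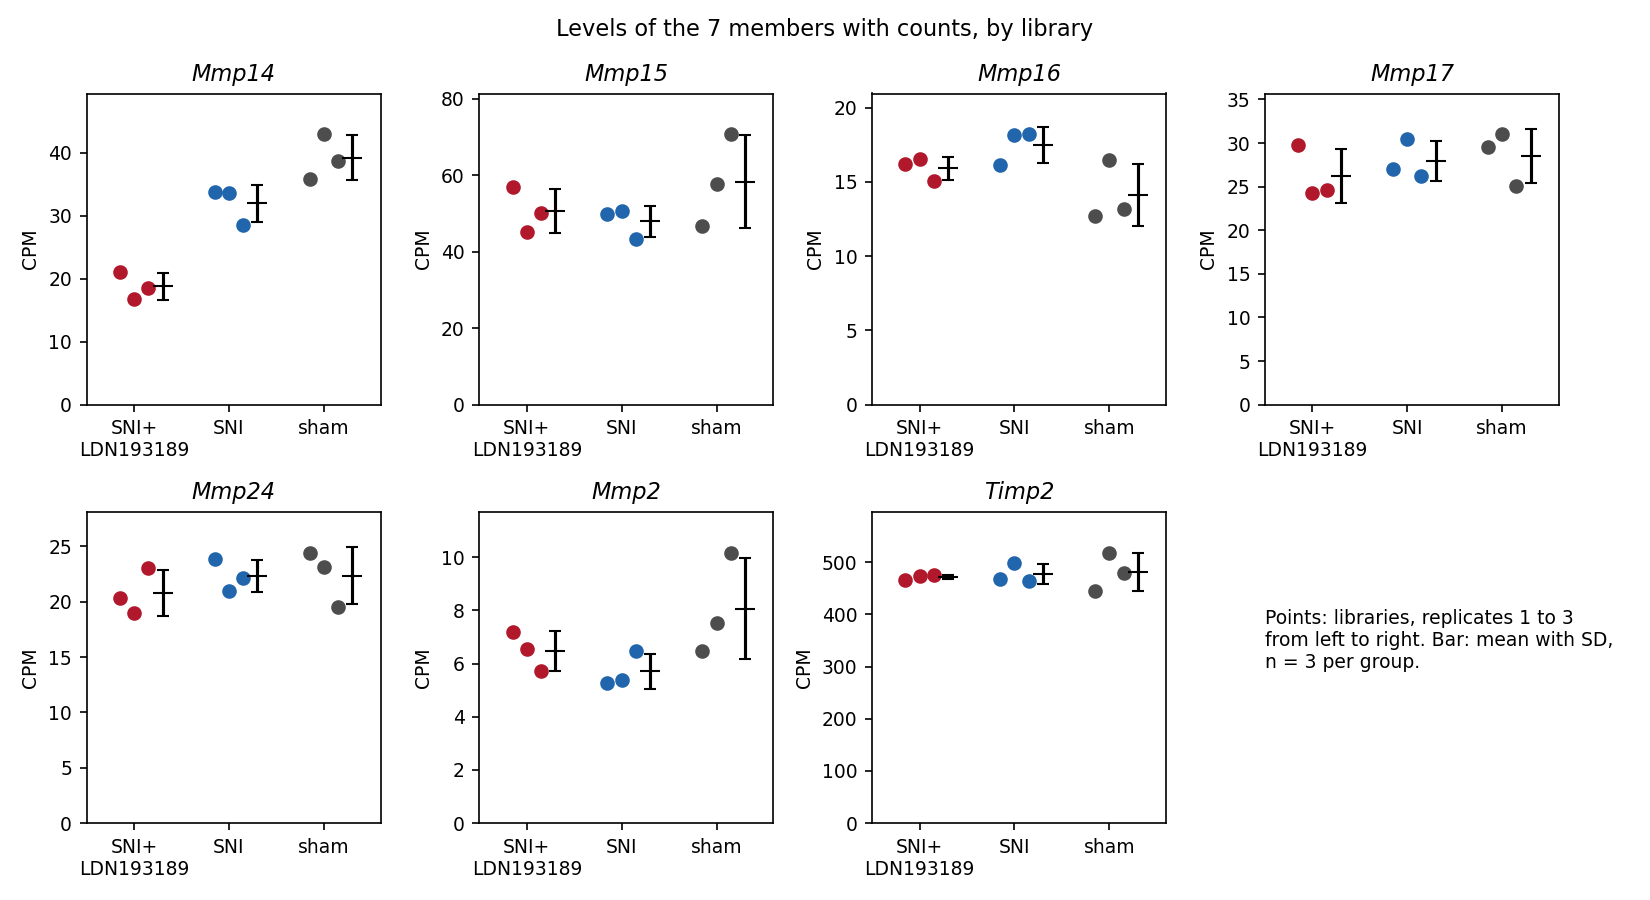
Level in CPM (linear axis from 0) of each gene with counts, by group, with 1 point per library and a bar for the mean with SD (n = 3). Mmp14 steps down to 18.8 CPM in SNI+LDN193189, against 32.0 in SNI and 39.2 in sham, while Timp2 has means of 471, 477 and 481 CPM in the same order of groups.

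In whole tissue, fewer cells of a type and less RNA per cell cannot be told apart, and marker sums are given for that reason. Endothelial markers (12 of 12 with counts) summed to 407 to 450 CPM in SNI+LDN193189, 425 to 469 CPM in SNI and 415 to 520 CPM in sham, and overlapped throughout. Mural cell markers (12 of 12 with counts), for pericytes and smooth muscle of vessels, summed to 332 to 354 CPM in SNI+LDN193189 against 366 to 402 CPM in SNI. These did not overlap, and the mean sum in SNI+LDN193189 was 0.889 of that in SNI, beside 0.588 for Mmp14. Sham libraries had a mural sum of 327 to 461 CPM, which overlapped both other groups. Microglial markers, with P2ry12 listed at 0 and 11 of 12 with counts, summed to 380 to 404 CPM in SNI+LDN193189, 360 to 400 CPM in SNI and 314 to 351 CPM in sham. They thus ran opposite to Mmp14 between SNI and sham. Skeletal muscle markers (12 of 12 with counts) summed to 4.66 to 21.6 CPM in SNI+LDN193189, 4.38 to 4.48 CPM in SNI and 9.88 to 960 CPM in sham. Erythrocyte markers, with Alas2 listed at 0 and 7 of 8 with counts, summed to 130 to 284, 112 to 158 and 187 to 283 CPM in these groups, lower in SNI than in sham without overlap. The part of these sums in the level of Mmp14 was not tested.

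Of the markers of cord tissue, those of oligodendrocytes summed to 26816 to 29281 CPM in SNI+LDN193189, 25096 to 28971 CPM in SNI and 25431 to 27587 CPM in sham. Astrocyte markers summed to 7219 to 7646, 7136 to 7624 and 6496 to 7375 CPM in the same groups, with Aqp4 listed at 0. Totals ran from 33432776 to 37190467 counts per library. Between 70.7 and 71.8% of the counts above 0 were even in each library, as were 39 of the 63 counts of the 7 genes described, and the labels give no reason. Sham libraries differed in neighbouring tissue. Replicate 3 had 1004 CPM of fibroblast markers of the meninges, with Ogn at 0, and 6040 CPM of Schwann cell markers, both the highest of the 9 libraries. Replicate 1 had 960 CPM of skeletal muscle markers, with 222 CPM of Acta1, and replicate 2 held 77.4% of all CPM of Scn10a, a sodium channel gene of sensory ganglia.

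The 4 membrane-type relatives among the genes described overlapped between SNI+LDN193189 and SNI, while Mmp25, given with the lists below, did not. Mmp15, the most abundant of them per length, had 56.8, 45.3 and 50.1 CPM in SNI+LDN193189 replicates, 49.9, 50.6 and 43.3 CPM in SNI replicates and 46.6, 57.6 and 70.7 CPM in sham replicates. All pairs of groups overlapped, and the highest value came from sham replicate 3. The log2 fold change of Mmp15 was 0.08 (SE 0.153) in SNI+LDN193189 against SNI, -0.28 (SE 0.153) in SNI against sham and -0.20 (SE 0.152) in SNI+LDN193189 against sham. The value in SNI+LDN193189 against SNI was -0.01 when replicate 1 of SNI+LDN193189 was left out and 0.16 when its replicate 2 was.

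Mmp16, a membrane-type enzyme best known from brain, stood at 16.2, 16.5 and 15.0 CPM in SNI+LDN193189, 16.1, 18.1 and 18.2 CPM in SNI and 12.7, 16.5 and 13.2 CPM in sham. Sham replicate 2 reached into the range of both injured groups, whose own ranges also overlapped. The log2 fold change was 0.31 (SE 0.110, 95% interval 0.08 to 0.55) in SNI against sham, the direction opposite to that of Mmp14, and -0.14 (SE 0.110) in SNI+LDN193189 against SNI. Leaving out sham replicate 1, 2 or 3 gave 0.24, 0.44 or 0.26 for SNI against sham.

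Mmp17, the lipid-anchored member, averaged 26.3 ± 3.07 CPM in SNI+LDN193189, 27.9 ± 2.26 CPM in SNI and 28.5 ± 3.13 CPM in sham. Mmp24, a member expressed mainly by neurons, averaged 20.8 ± 2.10, 22.3 ± 1.45 and 22.3 ± 2.55 CPM in the same groups. Both overlapped between all groups. Their log2 fold changes in SNI+LDN193189 against SNI were -0.09 (SE 0.101) for Mmp17 and -0.10 (SE 0.102) for Mmp24. Leaving out 1 library moved these values by more than 1.5 times, to between -0.19 and -0.02 for Mmp17 and between -0.18 and -0.04 for Mmp24. For Mmp17 the lowest came without SNI+LDN193189 replicate 1 and the highest without SNI replicate 2, and for Mmp24 without SNI+LDN193189 replicates 3 and 2.

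As a share of the summed FPKM of the 5 membrane-type genes described (without Mmp25), Mmp14 made up 17.1, 16.0 and 16.4% in the SNI+LDN193189 libraries. It was 25.7, 25.2 and 23.7% in SNI and 27.8, 28.8 and 26.4% in sham, so the 3 groups were apart here too. The share of Mmp15 was 39.2 ± 1.28% in SNI+LDN193189, 32.8 ± 1.04% in SNI and 36.0 ± 5.65% in sham. The sum itself was 29.8 ± 2.62, 33.8 ± 1.50 and 37.6 ± 2.74 FPKM in these groups. A share within a sum moves for every gene when 1 of them moves, so these shares repeat the level of Mmp14 and add no separate evidence. Their size also rests on the gene lengths behind the deposited FPKM.

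**Figure D3:**
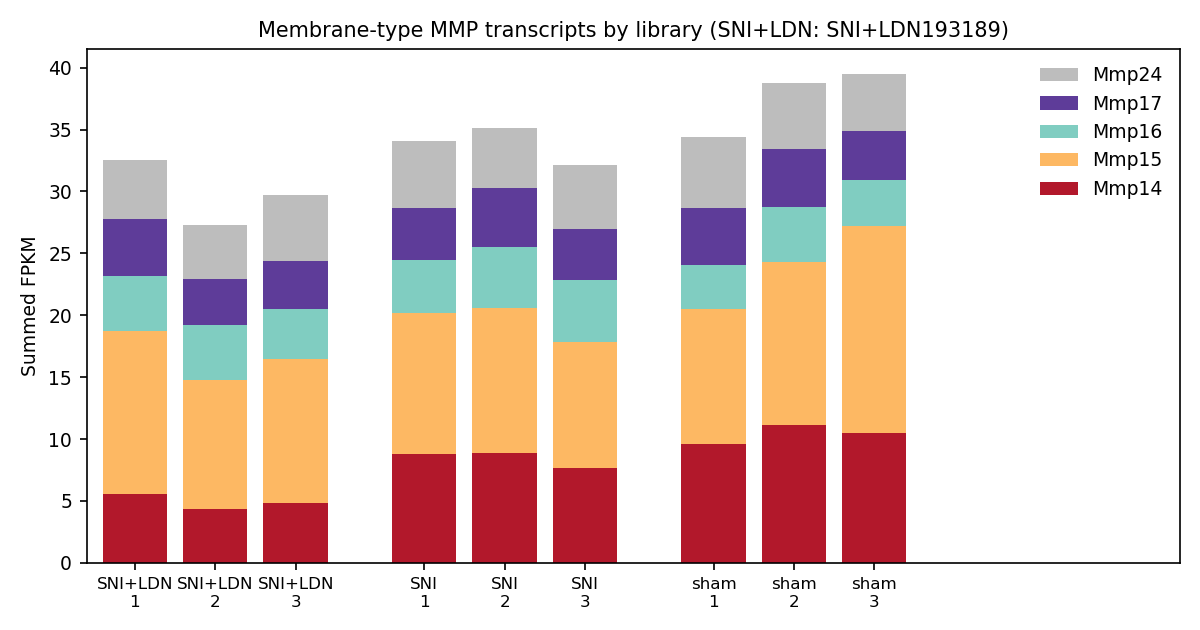
Summed FPKM of the 5 membrane-type genes described (without Mmp25) in each library, stacked from Mmp14 at the base to Mmp24 at the top (linear axis from 0). The Mmp14 segment is 16.0 to 17.1% of the stack in SNI+LDN193189 libraries, against 23.7 to 25.7% in SNI and 26.4 to 28.8% in sham.

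Mmp2, the gelatinase that the Mmp14 protein activates, was low in all groups and overlapped between SNI+LDN193189 and SNI. Its level was 7.18, 6.54 and 5.70 CPM in SNI+LDN193189, 5.29, 5.38 and 6.48 CPM in SNI and 6.49, 7.54 and 10.2 CPM in sham. SNI lay below sham by a narrow gap, since the highest SNI and the lowest sham library nearly met, and SNI+LDN193189 overlapped both. The log2 fold change was 0.18 (SE 0.175) in SNI+LDN193189 against SNI and -0.50 (SE 0.174, 95% interval -0.87 to -0.13) in SNI against sham. Leaving out 1 library gave 0.10 (without SNI+LDN193189 replicate 1) to 0.28 (without SNI replicate 3) in SNI+LDN193189 against SNI.

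Sham replicate 3 held the highest Mmp2 and Mmp15 and also the most meningeal fibroblast and Schwann cell marker RNA. Fibroblast markers (11 of 12 with counts) summed to 255 to 352 CPM in SNI+LDN193189, 217 to 317 CPM in SNI and 259 to 1004 CPM in sham. Schwann cell markers (10 of 10 with counts) summed to 835 to 1894, 331 to 921 and 886 to 6040 CPM in these groups. Without sham replicate 3, the log2 fold change in SNI against sham was -0.30 for Mmp2 and -0.12 for Mmp15, and -0.30 for Mmp14. In SNI+LDN193189 against sham it was -0.12 for Mmp2, -0.04 for Mmp15 and -1.07 for Mmp14. The Mmp2 and Mmp15 differences were thus smaller by more than 1.5 times without that library, and those of Mmp14 were -0.29 and -1.06 with it. The part of meninges or nerve root in them was not tested.

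Timp2, which both inhibits and assists Mmp14, was nearly level. It stood at 467, 473 and 475 CPM in SNI+LDN193189, 467, 499 and 464 CPM in SNI and 445, 518 and 479 CPM in sham. The groups overlapped fully. Its log2 fold change in SNI+LDN193189 against SNI was -0.02 with a 95% interval of -0.14 to 0.11, and in SNI against sham -0.01 with an interval of -0.13 to 0.11. Differences within these intervals remain possible for Timp2.

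SNI against sham asked how these genes differed between injured and uninjured cord. It shares the SNI libraries with the comparison that chose Mmp14, so for Mmp14 it is not independent of that choice. None of the 7 was called by the edgeR quasi-likelihood test adjusted over 18245 genes, where 0% of genes were called. Mmp14, with a log2 fold change of -0.29 (SE 0.0964, 95% interval -0.50 to -0.09), had an adjusted p = 0.927, as had Mmp2 and Mmp16. For Mmp15 the adjusted p was 0.941, for Mmp17 and Timp2 0.997 and for Mmp24 0.999. Before adjustment, 3 of the 7 and 972 of all genes had a p under 0.05 in edgeR. DESeq2 called 24 genes and limma-voom 0 in this comparison, and none of the 7 was among the calls of either. Without sham replicate 1, edgeR called 38 genes, again none of the 7. Groups did not overlap for 2 of the 7, Mmp14 and Mmp2, both lower in SNI, against 8.87% of all genes tested.

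SNI+LDN193189 against sham sets the treated injured cord beside the uninjured cord. Mmp14 was called, at 18.8 ± 2.13 CPM in SNI+LDN193189 and 39.2 ± 3.58 CPM in sham. The log2 fold change was -1.06 (SE 0.0987, 95% interval -1.27 to -0.85), which is 0.479 of the sham level, with an edgeR adjusted p = 0.000274. It was lower in 3 of 3 SNI+LDN193189 libraries than in every sham library. This comparison shares the SNI+LDN193189 libraries with the one that chose the gene and is not independent of it. Of all genes, 0.0164% were called, which is 3 genes, and 13.1% had groups that did not overlap. Of the 7 genes, 1 was called and 1 did not overlap, Mmp14 both times. The adjusted p in edgeR was 0.633 for Mmp2, 0.738 for Mmp15, 0.683 for Mmp16, 0.752 for Mmp17, 0.793 for Mmp24 and 0.914 for Timp2.

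**Figure D4:**
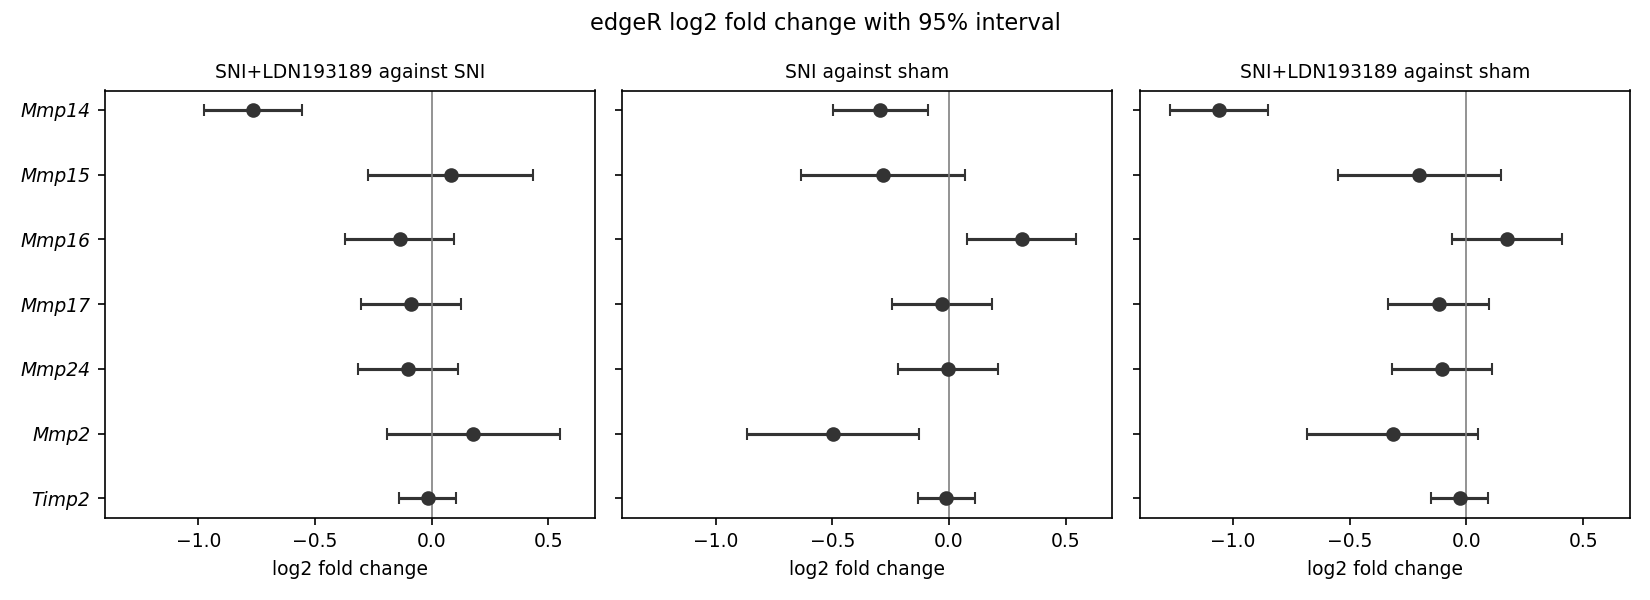
Log2 fold change of each gene with counts and its 95% interval from the edgeR fit, in SNI+LDN193189 against SNI (left, the comparison that chose Mmp14), SNI against sham (middle) and SNI+LDN193189 against sham (right). Points left of the line are lower in the group named before against; Mmp14 lies at -0.77, -0.29 and -1.06.

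The promoter of Mmp14 is printed because the results turn on this gene, with that of Mmp15, the most abundant membrane-type gene per length, beside it. Each line holds the 250 bases before the start in the RefSeq table for GRCm38.p6, plus strand. Capitals mark matches to the GC box GGGCGG and to the EGR motif GCGGGGGCG on either strand.
Mmp14 promoter, chr14:54431348-54431597: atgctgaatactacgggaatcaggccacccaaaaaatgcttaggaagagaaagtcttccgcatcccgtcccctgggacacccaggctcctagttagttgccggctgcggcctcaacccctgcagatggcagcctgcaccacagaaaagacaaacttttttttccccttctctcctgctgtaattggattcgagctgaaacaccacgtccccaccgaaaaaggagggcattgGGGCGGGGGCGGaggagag
Mmp15 promoter, chr8:95352046-95352295: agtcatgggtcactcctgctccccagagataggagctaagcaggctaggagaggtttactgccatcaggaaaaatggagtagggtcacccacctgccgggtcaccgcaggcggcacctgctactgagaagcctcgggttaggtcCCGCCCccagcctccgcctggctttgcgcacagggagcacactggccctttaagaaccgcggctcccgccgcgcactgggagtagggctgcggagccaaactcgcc
The Mmp14 window holds 2 GC boxes, beginning 19 and 13 bases before the start, and 1 EGR match beginning 17 bases before it, which overlaps both. Mmp15 has 1 GC box, 106 bases before the start, and no EGR match. Among 32851 such windows, 32.7% hold a GC box and 2.57% an EGR match. Motifs of the SMAD proteins that act below BMP receptors, GGCGCC (in 9.59% of windows) and GTCTAGAC (in 0.167%), had no match in either window, nor had the E-box CACGTG (in 6.02%). A match is a run of letters and not a bound site, and no match says only that these letters are not in these 250 bases. The table held windows for 7 of the 10 genes, without Mmp2, Mmp16 and Mmp17.

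Other genes of the pathway were taken as lists chosen with earlier results known. Of 17 further matrix metalloproteinases, 2 were listed at 0 and 7 were tested. In SNI+LDN193189 against SNI 1 of the 7 was higher and 6 were lower, with a median log2 fold change of -0.15 beside -0.000748 over all genes. In SNI against sham 0 were higher and 7 lower, with a median of -0.29 beside 0.000482, and in SNI+LDN193189 against sham 1 was higher and 6 lower, with a median of -0.55 beside -0.00688. None was called against sham, beside 0% of all genes in SNI and 0.0164% in SNI+LDN193189. Mmp25, the other lipid-anchored membrane-type enzyme, averaged 0.758 ± 0.120 CPM in SNI+LDN193189, 1.03 ± 0.0544 CPM in SNI and 1.80 ± 0.582 CPM in sham. Its groups did not overlap in any comparison and followed the order of Mmp14. Such gaps held for 11.3% (SNI+LDN193189 against SNI), 8.87% (SNI against sham) and 13.1% (SNI+LDN193189 against sham) of all genes tested. The log2 fold change of Mmp25 was -0.45 in SNI+LDN193189 against SNI. Against sham it was -1.24 (edgeR adjusted p = 0.345) in SNI+LDN193189 and -0.79 (edgeR adjusted p = 0.927) in SNI. Mmp11, a secreted enzyme that furin activates, averaged 1.93 ± 0.389, 1.94 ± 0.251 and 3.05 ± 0.928 CPM in SNI+LDN193189, SNI and sham. Mmp23 averaged 1.30 ± 0.0301, 1.55 ± 0.175 and 1.90 ± 0.230 CPM in these groups. Mmp13, a collagenase, averaged 0.194 ± 0.144 CPM in SNI+LDN193189 and 1.06 ± 1.61 CPM in SNI, with an SE of 2.45 on a log2 fold change of -2.41. These are low levels, and the SDs of Mmp13 in SNI and of Mmp25 in sham are large beside their means.

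All 26 ADAM and ADAMTS proteases, which shed surface proteins or cut proteoglycans, were tested. Against sham 0 of the 26 were called in either comparison, beside 0% of all genes in SNI and 0.0164% in SNI+LDN193189. The median log2 fold change of the 26 was -0.03 in SNI+LDN193189 against SNI, -0.11 in SNI against sham and -0.13 in SNI+LDN193189 against sham. Adamts15, which cuts aggrecan and versican, averaged 2.77 ± 0.178 CPM in SNI+LDN193189, 3.12 ± 0.257 CPM in SNI and 4.75 ± 0.604 CPM in sham. Its edgeR adjusted p was 0.282 in SNI+LDN193189 against sham (log2 fold change -0.78) and 0.900 in SNI against sham (-0.60). Adamts16 averaged 7.25 ± 1.36 CPM in SNI+LDN193189 and 10.1 ± 1.47 CPM in SNI, and Adamts1, which also cuts versican, 18.7 ± 3.19 and 23.5 ± 1.51 CPM. The groups of Adamts16 and Adamts1 did not overlap, as for 3 of the 26 genes, beside 11.3% of all genes tested. Their log2 fold changes in SNI+LDN193189 against SNI were -0.47 and -0.33. That of Adam8 was larger, at -0.54, but its groups overlapped, with 3.32 ± 0.944 CPM in SNI+LDN193189 and 4.83 ± 0.765 CPM in SNI.

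Among 21 genes for activation, anchoring and inhibition of membrane-type enzymes, 20 were tested. Against sham 0 of the 20 were called in either comparison, beside 0% of all genes in SNI and 0.0164% in SNI+LDN193189. Medians of the 20 were 0.01 in SNI+LDN193189 against SNI, -0.05 in SNI against sham and -0.06 in SNI+LDN193189 against sham. Cldn5, a tight junction protein of endothelium, averaged 21.9 ± 1.63 CPM in SNI+LDN193189, 28.6 ± 6.03 CPM in SNI and 34.7 ± 4.70 CPM in sham. Against sham its log2 fold change in SNI+LDN193189 was -0.66 (edgeR adjusted p = 0.353). Cd81, a tetraspanin, averaged 156 ± 1.22 CPM in SNI+LDN193189 and 138 ± 6.01 CPM in sham, a log2 fold change of 0.17 (edgeR adjusted p = 0.412). Cav1, the caveolin that takes part in uptake of Mmp14 from the surface, averaged 31.7 ± 2.03 CPM in SNI and 49.3 ± 19.2 CPM in sham.

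The 28 substrates of membrane-type enzymes were all tested. Against sham 0 of the 28 were called in either comparison, beside 0% of all genes in SNI and 0.0164% in SNI+LDN193189. In SNI+LDN193189 against SNI 9 were higher and 19 lower (median -0.06), in SNI against sham 14 and 14 (median -0.02), and in SNI+LDN193189 against sham 8 and 20 (median -0.07). Tgfb1, a growth factor held latent in the matrix, averaged 6.27 ± 1.11 CPM in SNI+LDN193189, 6.07 ± 0.225 CPM in SNI and 8.09 ± 0.611 CPM in sham. Both injured groups lay below sham without overlap, with edgeR adjusted p = 0.547 in SNI+LDN193189 and 0.927 in SNI. Of the 28, 2 did not overlap in SNI+LDN193189 against sham, beside 13.1% of all genes tested. In SNI against sham 5 did not, beside 8.87%. Col3a1, a fibrillar collagen, averaged 17.4 ± 8.24 CPM in SNI+LDN193189, 12.9 ± 5.57 CPM in SNI and 39.2 ± 22.6 CPM in sham. It belongs to the fibroblast marker list, whose sum was 259 to 1004 CPM in sham and highest in sham replicate 3, and the part of meningeal tissue in its level was not tested. Tnc, the matrix protein tenascin C, averaged 4.79 ± 0.602 CPM in SNI+LDN193189 and 6.51 ± 1.12 CPM in SNI. These groups did not overlap, as for 6 of the 28 in that comparison, beside 11.3% of all genes tested.

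Of 12 genes of the plasminogen system, a second protease cascade that acts on the matrix, 10 were tested. Against sham 0 of the 10 were called in either comparison, beside 0% of all genes in SNI and 0.0164% in SNI+LDN193189. Medians of the 10 were 0.02 in SNI+LDN193189 against SNI, -0.03 in SNI against sham and -0.04 in SNI+LDN193189 against sham. Plau, the urokinase gene, averaged 1.76 ± 0.328 CPM in SNI+LDN193189, 2.00 ± 0.258 CPM in SNI and 2.34 ± 0.461 CPM in sham, and Plat, the tissue activator gene, 49.7 ± 9.93 CPM in SNI+LDN193189 and 47.4 ± 0.795 CPM in SNI. The groups of Plau overlapped in all comparisons, as did those of Plat.

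The genes whose pattern over the 9 libraries was most like that of Mmp14 were found by Pearson correlation of log2(CPM + 0.5) among 15179 genes with a mean of at least 1 CPM. The 9 libraries hold 3 groups that differ in Mmp14, so the values describe these libraries and have no test. Vstm4, an immunoglobulin-family membrane protein, was the most like (r = 0.973, Spearman rho 0.933), at 14.5 ± 2.59 CPM in SNI+LDN193189, 23.1 ± 3.38 CPM in SNI and 28.4 ± 3.91 CPM in sham. Nrp1, the receptor neuropilin-1, followed (r = 0.955) with 33.5 ± 1.74, 40.8 ± 2.81 and 42.6 ± 0.447 CPM in these groups. Kank1 (r = 0.953), Sash1 (r = 0.945), Tmem100 (r = 0.930), Ier5 (r = 0.928), Klf10 (r = 0.928) and Gja1 (r = 0.927) completed the 8. All 8 were lower without overlap in SNI+LDN193189 against sham, as their choice largely fixes. Kank1 alone among the 8 did not overlap between SNI and sham, with 38.9 ± 4.01 CPM in SNI and 47.2 ± 3.27 CPM in sham. Between SNI+LDN193189 and SNI, however, Kank1 and Sash1 overlapped. For Kank1, SNI+LDN193189 replicate 1 had 34.9 CPM and SNI replicate 3 had 34.3 CPM.

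The 4 genes that ran most opposite to Mmp14 were Per2 (r = -0.957), Slco4a1 (r = -0.955), Rab24 (r = -0.949) and Coq10b (r = -0.933). Per2, a repressor of the circadian clock, averaged 28.9 ± 2.68 CPM in SNI+LDN193189, 18.3 ± 2.86 CPM in SNI and 17.1 ± 1.46 CPM in sham. Slco4a1, an organic anion transporter, averaged 8.91 ± 1.09, 6.28 ± 1.18 and 5.36 ± 0.482 CPM in these groups. Relatives of Mmp14 ranked far from it: Mmp17 had r = 0.525 (rank 1437 of 15179), Mmp15 0.395 (rank 2645), Mmp24 0.387 (rank 2732), Timp2 0.307 (rank 3628), Mmp2 0.284 (rank 3921) and Mmp16 -0.211 (rank 10216).

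**Figure D5:**
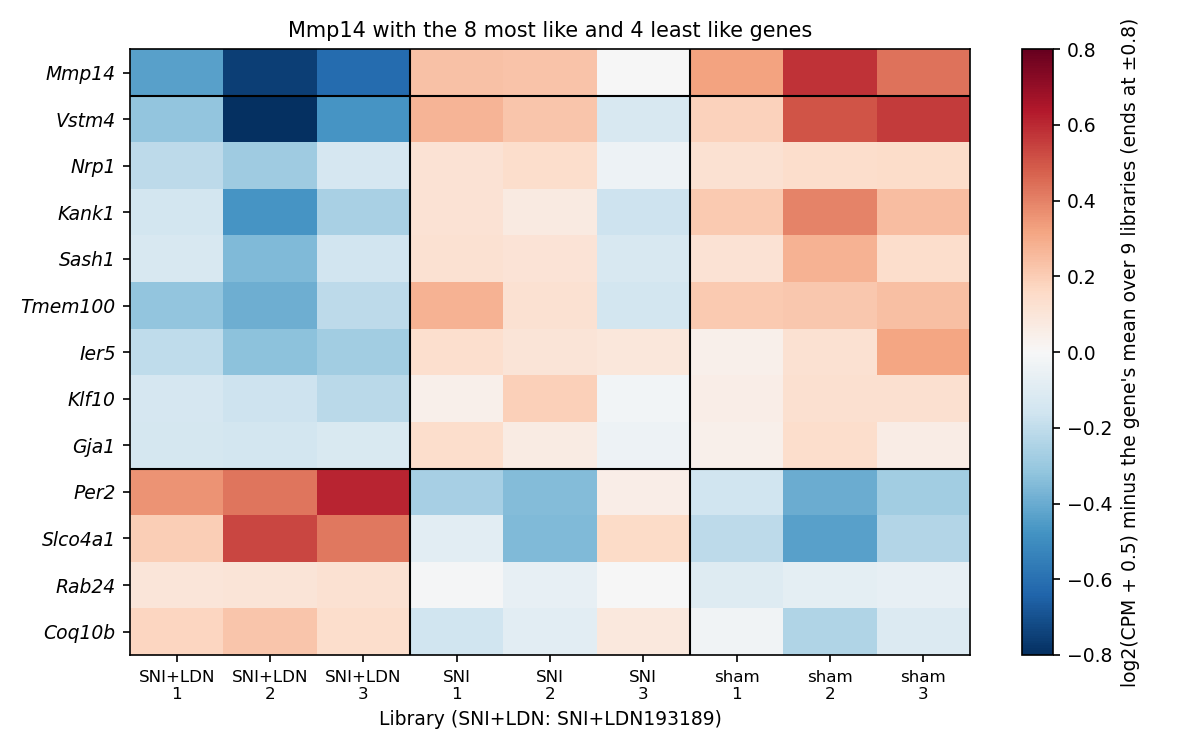
Level of Mmp14, the 8 most like genes and the 4 least like genes in each library, as log2(CPM + 0.5) minus the gene's mean over 9 libraries; red is above and blue below that mean, and the scale ends at 0.8 either way. The SNI+LDN193189 columns are blue for Mmp14 and the 8 like genes and red for Per2, Slco4a1, Rab24 and Coq10b.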

How the data were processed

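Poly(A)-selected RNA was sequenced in paired ends with strand marking, per the labels' protocols, whose text speaks of cell lines although the tissue is cord. The authors deposited whole-number read counts per gene symbol and FPKM values for the same symbols and libraries. The submitters' processing notes name the build mm10; no source used here gives the aligner, counting tool or annotation.

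Counts of all 9 libraries entered 1 edgeR 4.0.16 quasi-likelihood fit of group means (robust, TMM factors 0.984 to 1.02, R 4.3.3), after filterByExpr left 18245 genes. The fit had 6 residual degrees of freedom and a biological coefficient of variation of 0.132. Benjamini-Hochberg adjustment ran over the 18245 genes, and calls were made under an adjusted p of 0.05; the fit was tested on simulated counts. Intervals are 95% from the fit. CPM were computed from the counts, while FPKM were used as deposited. Alternatives were DESeq2 1.42.0, limma 3.58.1 (voom, and log2 FPKM with a pseudocount of 0.1 or 1), other scaling, no filter, a replicate block, only the 2 groups compared and leaving out each library. Python 3.11.15, pandas 2.3.3 and numpy 2.4.6 handled annotation, and matplotlib 3.10.9 drew the figures.

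Symbols were matched to RefSeq (37562) and GENCODE M21 (29035) on GRCm38. The genes described and all lists were chosen with earlier results of these data known. From each list the 3 tested genes with the smallest p in a comparison could be named, or the 3 with the largest log2 fold change in SNI+LDN193189 against SNI among those with a mean of at least 1 CPM, and for likeness the 8 highest and 4 lowest correlations; those that best show a list are given. Marker genes are named where 1 library holds over 50% of their CPM or where they are listed at 0. The depth per library limits the precision of low counts, and p-values cover the spread between samples.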

Additional observations from a re-analysis of the deposited data

How the results depend on the processing

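The number of the 7 genes called stayed at 0 in SNI against sham and at 1, Mmp14, in SNI+LDN193189 against sham under all 17 alternatives. Both comparisons share libraries with the one that chose Mmp14, SNI in the former and SNI+LDN193189 in the latter. This stability is therefore no separate support. The log2 fold change of Mmp14 ranged from -0.857 to -0.670 in SNI+LDN193189 against SNI, from -0.355 to -0.218 in SNI against sham and from -1.15 to -0.945 in SNI+LDN193189 against sham, the last with adjusted p from 1.50e-18 to 0.0177. The call that chose Mmp14 in SNI+LDN193189 against SNI was kept under 9 of the 17 alternatives and lost under 8: limma-voom, both fits of log2 FPKM, the replicate block and 4 of the 9 that leave out a library. In that comparison, whose calls are not read as support, 1 library left out could change the sign of Mmp15 and Timp2. The value of Mmp15 went from 0.0820 to -0.00762 without SNI+LDN193189 replicate 1. That of Timp2 went from -0.0161 to 0.0190 without SNI replicate 2. In the comparisons against sham 10 values changed sign when a library was left out, all of genes not called, and the others kept their direction and their side of the threshold. In SNI against sham, leaving out 1 library gave -0.118 to 0.0338 for Mmp17, -0.0959 to 0.0635 for Mmp24 and -0.0666 to 0.0453 for Timp2, and in SNI+LDN193189 against sham -0.0835 to 0.0291 for Timp2; the cause was not tested. Genes called over the whole table ranged from 0 to 5 in SNI+LDN193189 against SNI, from 0 to 38 in SNI against sham and from 1 to 73 in SNI+LDN193189 against sham, where DESeq2 gave 73, no filter 30 and leaving out SNI replicate 3 17.

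Same-numbered libraries of SNI and sham deviated together with correlations of 0.0728, 0.206 and 0.255, and each SNI library was nearest to its own number. In the other comparisons the correlations ran from -0.203 to 0.101, so the numbers were not taken as pairs. With a replicate block the log2 fold change of Mmp14 was -0.76 in SNI+LDN193189 against SNI, -0.30 in SNI against sham and -1.06 (adjusted p = 0.00253, edgeR) in SNI+LDN193189 against sham. The block gave 0 called genes in SNI+LDN193189 against SNI, against 1 without it, 0 in SNI against sham and 4, against 3, in SNI+LDN193189 against sham. The 3 libraries per group limit the precision of all values.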
